A study of Mus musculus with 2 samples.

Results

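The subject is a list of 44 interferon-stimulated genes, followed through the leukocytes of the pressure-overloaded mouse heart. Members were taken by gene symbol from a transcriptome matrix of 31192 genes, and all 44 were found. The list was set by gene name, and it was chosen with earlier results of these data known. The question was which leukocytes use these genes and whether a few cells carry the whole set.

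Type I interferons (interferon alpha and beta) bind a receptor of 2 chains, Ifnar1 and Ifnar2, and the kinases Jak1 and Tyk2 then activate a complex that holds Stat2 and Irf9, enters the nucleus and switches on the antiviral genes studied here. Interferon gamma, made mostly by NK and T cells, acts through its own receptor and shares many of the same targets. Nearly every cell type can respond, and in the injured heart monocytes, macrophages and neutrophils with raised interferon-stimulated genes are a recognised state.

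Hearts came from Cdh5-CreERT2;REFLEX mice given tamoxifen and then transverse aortic constriction (TAC), an operation that narrows the aorta and overloads the left ventricle. Cdh5 is the gene of VE-cadherin, so the tamoxifen-dependent Cre is driven from an endothelial promoter, and GFP marks cells that the REFLEX system labels as interacting partners. Sorted CD45-positive and CD45-negative cells, GFP-positive and GFP-negative, were pooled into 1 transcriptome library and 1 hashtag library made with BD Rhapsody beads and TAS-Seq amplification. The labels used here name no unoperated heart and give no number of animals, and no source used here ties a hashtag to a sorted fraction, so neither TAC nor GFP could be compared. With 1 library there are no replicates: no p-value is given, and every interval below is an exact 95% interval that covers counting error only.

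After filtering, 857 of 878 cells remained, with 28406.6 to 706332 estimated counts per cell (median 77171). They fell into 10 clusters, made without the members and without the other interferon genes named below, and 9 were named from marker genes as "like" a cell type. These were Retnlg-high neutrophil-like (167 cells), Icam1-high neutrophil-like (106), Ly6c2-high monocyte-like (98), Ace-high monocyte-like (81), macrophage-like (49), conventional dendritic-like (32), B cell-like (161), T cell-like (102) and NK cell-like (27) cells. The last 34 cells, led by Plcb1, had 4 monocyte markers but none among their 10 leading genes and stay unnamed. The Ace-high monocyte-like cells also carried 3 blood endothelial markers, and Ifi205, a member, was among the 10 leading genes of the conventional dendritic-like cells although it took no part in the clustering. Free RNA was present: S100a8, an abundant neutrophil transcript, had a count in 91.3% of B cell-like cells against 100% of neutrophil-like cells, while Retnlg, another neutrophil gene, had one in 22.4% against 81.3%.

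The promoters of members at opposite ends of the results are shown first. They were searched for letters through which interferon-activated factors are known to act, and not all of them carry these letters. RefSeq windows (GRCm38.p6, 250 bases before to 50 after the start of transcription) were matched for 35 of the 44 members. The bases before the start are printed 5′ to 3′ on the gene's strand, and capitals mark 1 of 2 motifs searched on both strands. The interferon-stimulated response element (ISRE), bound by the complex with Stat2 and Irf9, was searched as GAAANNGAAA, and on the other strand as its reverse complement. The gamma-activated site (GAS), used in the response to interferon gamma, was searched as TTCNNNGAA, which is the same on both strands. The first 5 are the matched members with over 50% of their level in the 43 cells that hold most of the other members, as described below, and the last 2 are the members with the smallest share there. Usp18 and Mx1, also over 50%, were not matched.
Ifit3, chr19:34583279-34583528 (+), ISRE letters at -156 and -122 from the start: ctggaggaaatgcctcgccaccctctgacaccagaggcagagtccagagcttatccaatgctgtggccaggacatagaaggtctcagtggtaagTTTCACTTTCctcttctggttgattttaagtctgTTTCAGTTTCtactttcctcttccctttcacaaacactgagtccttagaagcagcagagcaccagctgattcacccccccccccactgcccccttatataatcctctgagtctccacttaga
Ifit1, chr19:34640639-34640888 (+), ISRE letters at -104 and -85: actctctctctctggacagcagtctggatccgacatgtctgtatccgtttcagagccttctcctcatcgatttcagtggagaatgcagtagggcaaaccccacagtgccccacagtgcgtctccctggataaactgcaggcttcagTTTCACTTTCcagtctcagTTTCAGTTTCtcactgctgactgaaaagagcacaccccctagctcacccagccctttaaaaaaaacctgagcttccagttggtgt
Ifit2, chr19:34550444-34550693 (+, the first of 2 windows, neither with ISRE letters), GAS letters at -241: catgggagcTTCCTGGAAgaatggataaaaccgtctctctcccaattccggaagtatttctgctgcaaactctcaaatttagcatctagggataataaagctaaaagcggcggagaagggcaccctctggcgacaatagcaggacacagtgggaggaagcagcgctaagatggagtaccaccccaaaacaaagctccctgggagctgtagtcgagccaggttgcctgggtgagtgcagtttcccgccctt
Rsad2, chr12:26456453-26456702 (-), ISRE letters at -120: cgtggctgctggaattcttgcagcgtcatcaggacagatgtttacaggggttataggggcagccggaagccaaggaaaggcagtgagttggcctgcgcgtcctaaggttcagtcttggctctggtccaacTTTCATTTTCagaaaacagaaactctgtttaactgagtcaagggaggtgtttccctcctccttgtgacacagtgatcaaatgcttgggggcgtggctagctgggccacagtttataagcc
Ifit3b, chr19:34607707-34607956 (+), ISRE letters at -188 and -154: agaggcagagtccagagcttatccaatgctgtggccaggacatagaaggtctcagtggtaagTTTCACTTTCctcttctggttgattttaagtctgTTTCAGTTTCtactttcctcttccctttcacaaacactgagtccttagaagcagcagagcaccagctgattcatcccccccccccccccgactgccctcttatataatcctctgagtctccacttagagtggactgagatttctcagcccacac
Samd9l, chr6:3399572-3399821 (-), neither motif: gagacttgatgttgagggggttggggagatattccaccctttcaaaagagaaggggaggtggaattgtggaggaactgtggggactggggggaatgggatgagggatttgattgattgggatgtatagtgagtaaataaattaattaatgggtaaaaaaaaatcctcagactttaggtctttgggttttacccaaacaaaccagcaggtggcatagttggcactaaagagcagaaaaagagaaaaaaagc
Irf1, chr11:53769764-53770013 (+, the first of 2 windows), GAS letters at -90: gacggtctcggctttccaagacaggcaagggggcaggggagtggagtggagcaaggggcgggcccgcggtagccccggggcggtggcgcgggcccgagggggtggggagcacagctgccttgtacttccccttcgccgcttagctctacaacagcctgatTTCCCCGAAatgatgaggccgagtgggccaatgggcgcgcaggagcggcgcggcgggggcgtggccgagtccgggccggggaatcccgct

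In Ifit3 and Ifit3b, neighbouring copies of an interferon-induced tetratricopeptide gene, the same pair of ISRE letters stands in the same surroundings, moved by 32 bases relative to the start. Across the list, 20 of 35 members (57.1%) held the ISRE letters in their 300 bases, against 1079 of 27025 genes in the table (3.99%). The GAS letters were in 9 of 35 members (25.7%) and in 2582 of 27025 genes (9.55%). A match to letters is a description of the window, not a mapped binding site.

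Most leukocytes carried a small and partial set. To compare cells of different depth, each was thinned to 25000 counts, and a member with a count left was taken as present. The median cell had 5 of 44 members present (quartiles 3 and 8), 13 cells had none, and the highest cell had 40. No cell had all 44. Ly6c2-high monocyte-like cells had the most at the median, 10 members, followed by macrophage-like and unnamed cells with 8 each, conventional dendritic-like cells with 7.5 and Ace-high monocyte-like cells with 6. Retnlg-high neutrophil-like and T cell-like cells had 5, B cell-like and NK cell-like cells 4, and Icam1-high neutrophil-like cells 3.

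A small number of myeloid cells held far more. Cells with at least 15 members present, called rich here, numbered 53 of 857 (6.18%, interval 4.67 to 8.01). The limit cuts a continuous range: 20 cells had 13 or 14 members and 15 cells had 15 or 16. Ly6c2-high monocyte-like cells gave 22 of the 53, which is 22.4% of their 98 cells (interval 14.6 to 32), and macrophage-like cells gave 10 of 49 (20.4%, interval 10.2 to 34.3). The unnamed cells gave 5 of 34 (14.7%) and conventional dendritic-like cells 3 of 32 (9.38%). Shares were lower in neutrophil-like cells, with 5 of 106 Icam1-high (4.72%) and 6 of 167 Retnlg-high (3.59%), and in Ace-high monocyte-like cells, with 2 of 81 (2.47%). Thinning sets cells to 1 depth, not to 1 number of genes. The median cell then showed 1790 genes in Icam1-high, 1690 in Retnlg-high and 2485 in Ace-high cells. It showed 2933.5 in Ly6c2-high monocyte-like and 3237 in macrophage-like cells. The part of this in the differences between subsets was not tested.

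None of the 290 B, T and NK cell-like cells was rich, which allows a share of up to 1.03% by the 3-count limit (exact upper bound 1.26%), and their highest cell had 13 members. In the 4 myeloid classes together 48 of 533 cells were rich (9.01%, interval 6.71 to 11.8). The absence from lymphoid cells holds for this limit: with 10 members or more, 22 lymphoid and 115 myeloid cells qualified.

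**Figure D1:**
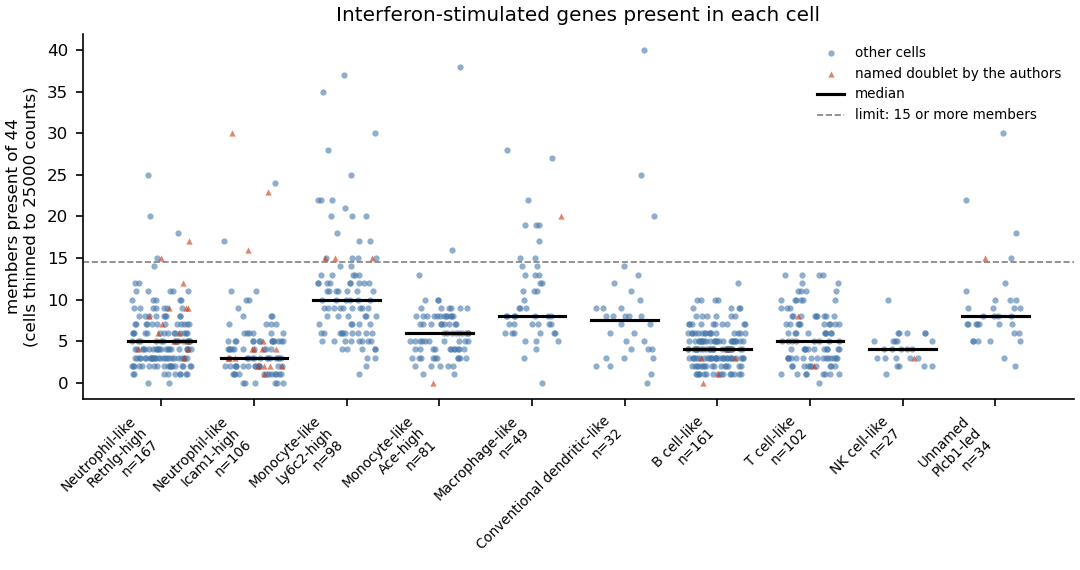
Members present in each cell (y axis, of 44, after thinning to 25000 counts) for the 10 subsets (x axis); each point is a cell, triangles are cells that the authors' tag call named doublet, black bars are medians and the dashed line is the limit of 15. Cells stand above the line in the neutrophil-like, monocyte-like, macrophage-like, dendritic-like and unnamed subsets, most of them Ly6c2-high monocyte-like or macrophage-like. No B, T or NK cell-like cell reaches it.

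Rich cells had a higher median total than the rest of their own subset in every subset that held them. Their difference in the list was fixed by the way they were chosen, so it is not compared with depth. In Ly6c2-high monocyte-like cells the median total was 258104 counts in rich and 225641 in other cells, and after thinning they had 2944 and 2891 genes. Macrophage-like cells had 292124 against 257831 counts and 3296 against 3237 genes. Rich Retnlg-high neutrophil-like cells were deeper as well, with 82201 against 65796 counts and 1790 against 1688 genes. The median totals were 144679 against 105770 in Ace-high monocyte-like, 72714 against 59457 in Icam1-high neutrophil-like and 65052 against 56532 in unnamed cells. The gap was widest in the dendritic-like cells, where the 3 rich cells had a median of 453972 counts against 246900. The part of depth in the result beyond this thinning was not tested.

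The tag call moved with richness. Among the 46 cells the authors named doublet, 10 were rich (21.7%, interval 10.9 to 36.4), against 43 of 811 others (5.30%, interval 3.86 to 7.08). Leaving the doublet-named cells out kept 19 of 95 Ly6c2-high monocyte-like cells and 9 of 48 macrophage-like cells rich, but only 2 of 90 Icam1-high and 4 of 151 Retnlg-high neutrophil-like cells. Of myeloid cells, 14 of 226 with tag A951 were rich (6.19%), 14 of 123 with A952 (11.4%), 10 of 105 with A965 (9.52%) and 1 of 42 with A953 (2.38%). No source used here says what sets these tags apart, and their part in the result was not tested.

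The 27 cells with 20 or more members show what a near-complete set looks like. They comprised 12 Ly6c2-high monocyte-like, 4 macrophage-like, 3 conventional dendritic-like, 3 Icam1-high neutrophil-like, 2 unnamed, 2 Retnlg-high neutrophil-like and 1 Ace-high monocyte-like cell, and 3 of them were named doublet. The richest was a conventional dendritic-like cell of 453972 counts with 40 members present after thinning and every member but Ifi44 above 0 before it. It held 1648 counts of Bst2, 1399 of Irf7, 1306 of Isg15, 900 of Ifi205, 820 of Usp18, 398 of Ifit1, 371 of Ifit3, 347 of Rsad2 and 161 of Mx1. Next came an Ace-high monocyte-like cell of 173272 counts with 38 members present. The third, a Ly6c2-high monocyte-like cell of 357116 counts, had 37 members and 1320 counts of Isg15, yet Rsad2 and Ifi27l2a were both at 0 in it.

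The highest summed level belonged to another cell, an Icam1-high neutrophil-like cell of 72714 counts with 24 members and a list level of 41009 CPM, which are counts scaled to 1e6 per cell or class. It held 723 counts of Isg15, while Bst2 and Oas1a, both present in the richest dendritic-like cell, were at 0 in it. A Retnlg-high neutrophil-like cell of 81745 counts with 25 members held 378 counts of Ifit1 and 307 of Ifit3.

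Some members were shared by nearly all of these cells and others by few. After thinning, Ifi204 was present in 27 of the 27, Irf7 in 26, Isg15, Oasl2 and Rtp4 in 25 each and Bst2 in 24. At the other end Ifit2 was present in 8, Herc6 and Ifit3b in 5 each and Ifi44 in 1. In the 13 cells with 25 or more members, Irf7, Oas1a, Oasl2, Isg15, Trim30a, Ifi204, Bst2, Slfn5 and Xaf1 were each above 0 in 13 of 13.

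**Figure D2:**
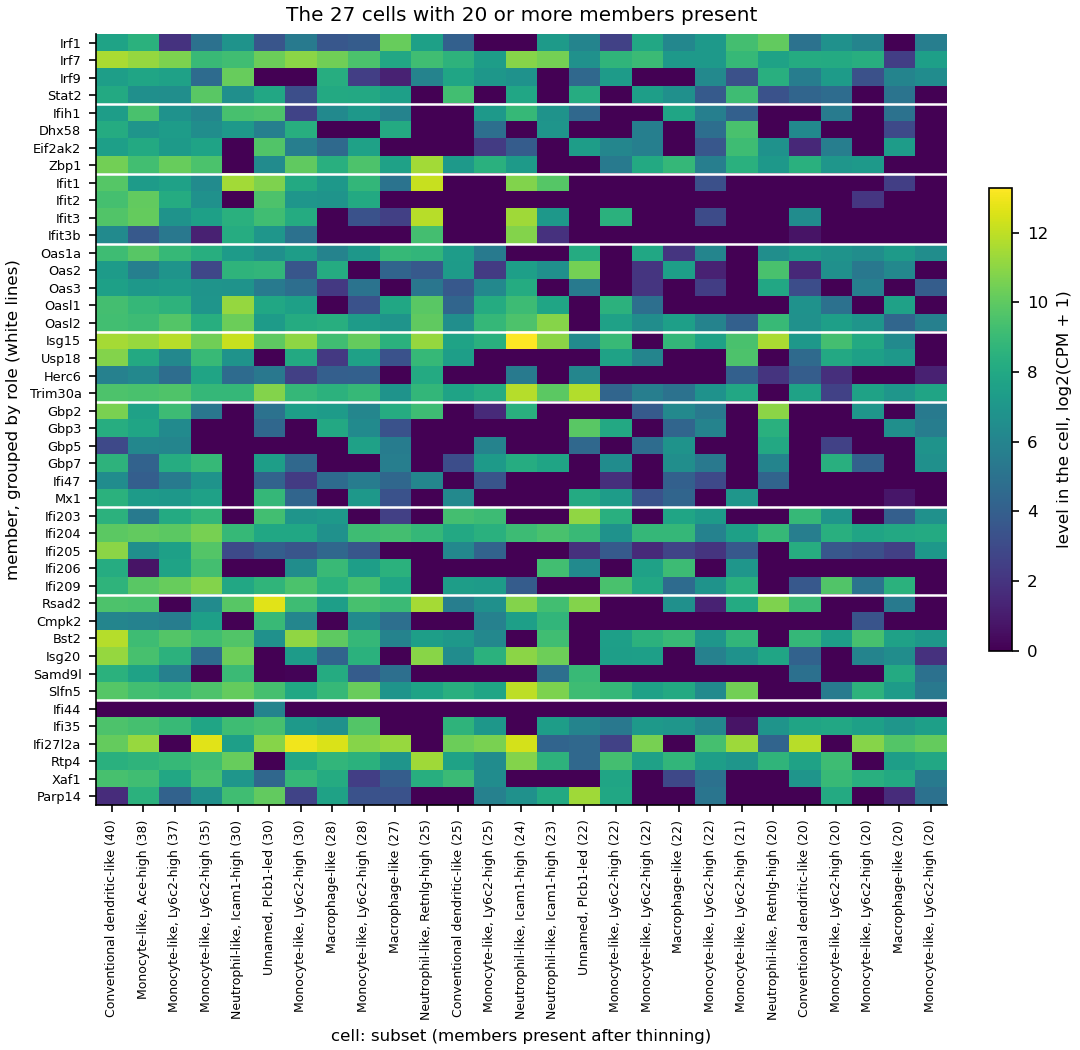
Level of each member (rows, grouped by role) in the 27 cells with 20 or more members present (columns, richest first, named by subset with the number present); colour is log2(CPM + 1). The Irf7, Isg15 and Ifi204 rows are filled almost throughout, while the IFIT rows are filled mainly in the richest cells and Ifi44 in 1 cell.

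Counts were then summed to ask how much of the list these cells hold. The richest 1% of cells (9 cells) held 13.2% of the summed member CPM, the richest 5% (43 cells) held 31.0% and the richest 10% (86 cells) held 42.2%; 126 cells held 50%. Other interferon-induced genes, 81 further genes of this response, were spread more evenly: the 43 cells richest in them held 15.7%, and 50% took 245 cells. For 16 unrelated reference genes of general use the figures were 8.47% and 331 cells. The lists differ in how abundant their genes are, and a list of rarer genes gives a more uneven count in itself. The 53 rich cells together held 29.6% of the summed member CPM.

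Concentration was steep in the conventional dendritic-like cells, where 1 cell of 32 held 40.9% of the list and 2 cells held 50.3%, and in Icam1-high neutrophil-like cells, where 6 of 106 cells held 51.8%. Macrophage-like cells were flatter, with 25.1% in 3 of 49 cells, and B cell-like cells flatter still, with 18.4% in 9 of 161.

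**Figure D3:**
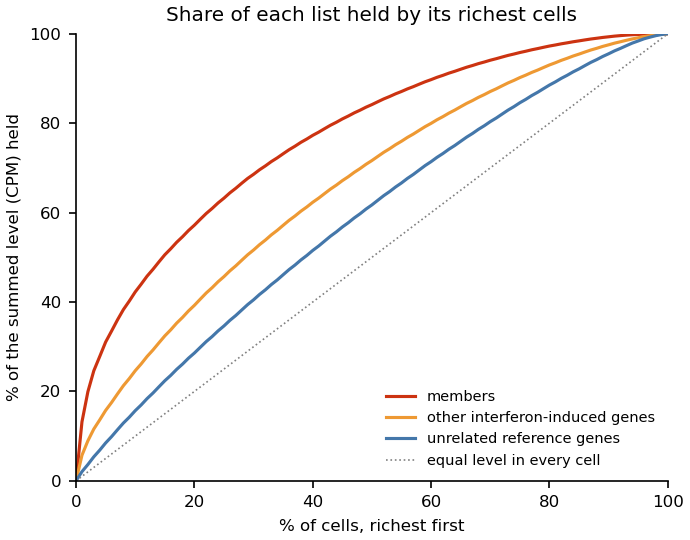
Cumulative share of the summed CPM of each list (y axis, %) held by the 857 cells ordered from richest (x axis, % of cells); the dotted diagonal is an equal level in every cell. At 5% of cells the member curve is at 31.0%, other interferon-induced genes at 15.7% and reference genes at 8.47%.

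For each member in turn, cells were ranked by how many of the other members they had. Its share in the top 43 cells was then taken. A gene's own values thus did not rank its cells, but reads split between near-identical copies, described below, still could. The median share was 28.6% in 5% of the cells, against 4.87% for the reference genes (range 2.22 to 7.51). Ifit3 stood highest at 91.5%, then Ifit1 at 84.1%, Ifit2 at 61.1%, Usp18, which removes Isg15 from proteins, at 59.2%, Rsad2 (viperin) at 56.7%, the dynamin-like GTPase Mx1 at 54.2% and Ifit3b at 53.6%. Of the others, 20 had 25 to 50% and 17 under 25%. Under 15% there were 3 members: Irf9 at 13.7%, Irf1 at 5.30% and Samd9l at 4.03%. Compared with cells of the same clusters, 43 of 44 members were at least 2 times higher in these cells (9.23% of all genes with 50 counts or more were, in the 43 cells with most members), with a median ratio of 6.81, and the exception was Irf1 at 1.2.

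The members that were rarest overall include the most concentrated ones: Ifit1 had a count in 51 cells, Ifit3 in 37 and Ifit3b in 22, with both copies in 18. Reads of Ifit3 and Ifit3b, near-identical copies, may be shared between them: 77.3% of the Ifit3b values above 0 and 45.9% of those of Ifit3 were fractions, so the split between them is uncertain. The same holds for Oas1a (86.7% fractions), Ifi205 (83.5%), Ifi47 (74.7%), Ifi206 (66.3%), Herc6 (62.4%), Ifi203 (52.2%), Ifi204 (50.5%) and Ifi209 (47.0%). Members with the ISRE letters had a median share of 27.6% (15.5 to 91.5) and the 15 matched members without them 28.1% (4.03 to 61.1). Of the matched members over 50%, Ifit3, Ifit1, Rsad2 and Ifit3b held the letters and Ifit2 did not. Irf9, Irf1 and Samd9l, with the lowest shares, did not hold them. The part of the letters in the shares was not tested.

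**Figure D4:**
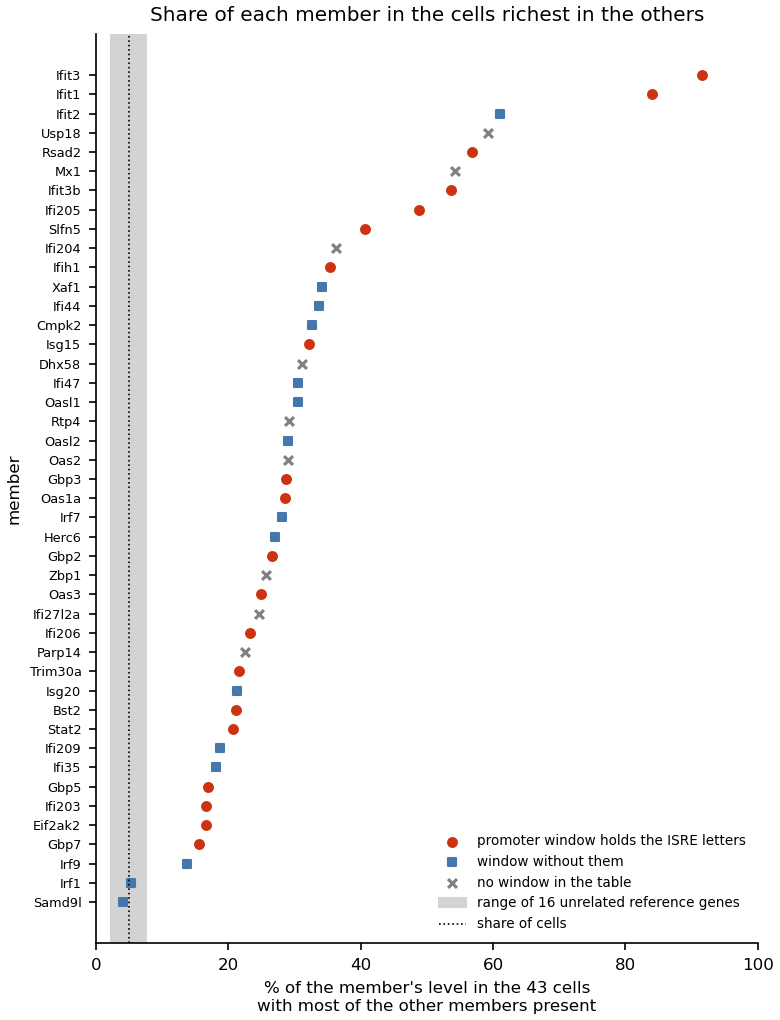
Share of each member's level (x axis, %) held by the 43 cells with most of the other members present, 1 point per member (y axis, in order of share), marked by whether its promoter window holds the ISRE letters (grey crosses have no window in the table); the grey band is the range of 16 reference genes and the dotted line is the share of cells. Ifit3 and Ifit1 stand far to the right, and Irf1 and Samd9l lie within the band.

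The list was also split to set choice and measure apart. They were not fully apart, because copies that may share reads fell in different sets, such as Ifit3b and Ifit3, or Ifi204 and Ifi203. Members were dealt alternately in alphabetical order into 22 and 22 genes; the first set picked the richest 5% of each class, 47 cells in all, and the other set was read in them. The other 22 members were 5.49 times as high in the picked cells as in the rest of their classes, and also 5.49 times with Ifit3b left out. By class the ratio was 15.2 in conventional dendritic-like, 7.86 in neutrophil-like, 5.95 in monocyte-like, 3.89 in macrophage-like and 10.1 in unnamed cells. Lymphoid ratios were lower, with 2.78 for T cell-like (6 picked cells), 1.66 for B cell-like (9) and 0.88 for NK cell-like cells (2). In the same 47 cells the other interferon-induced genes were at 2.76 times and the reference genes at 1.12 times the level of the rest.

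Summed over members, the list was at 3557 CPM (interval 3481 to 3634) in the unnamed cells. Of the named classes, conventional dendritic-like cells were highest at 3278 CPM (interval 3242 to 3315), then monocyte-like cells at 2762, neutrophil-like cells at 2546 and macrophage-like cells at 2314. T cell-like cells were at 1622 (1597 to 1646), B cell-like cells at 1483 (1461 to 1506) and NK cell-like cells at 987 (943 to 1032). The 4 myeloid classes together had 2688 CPM and the 3 lymphoid classes 1503, a ratio of 1.79 (interval 1.77 to 1.81). The order of the cell medians was different: Ly6c2-high monocyte-like cells stood at 2180 CPM and macrophage-like cells at 1860, but conventional dendritic-like cells at 1127 and Icam1-high neutrophil-like cells at 900, below the 1226 of T cell-like and 1210 of B cell-like cells.

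Without the 53 rich cells the dendritic-like level was 1216 CPM, that of macrophage-like cells 1591, of monocyte-like cells 1709 and of neutrophil-like cells 1778, and the ratio of myeloid to lymphoid cells was 1.09. Since the list itself chose those cells, removing them had to lower it, and all of them lay outside the lymphoid classes. Taking the richest 5% of cells out of every class, lymphoid ones included, left a ratio of 1.44.

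**Figure D5:**
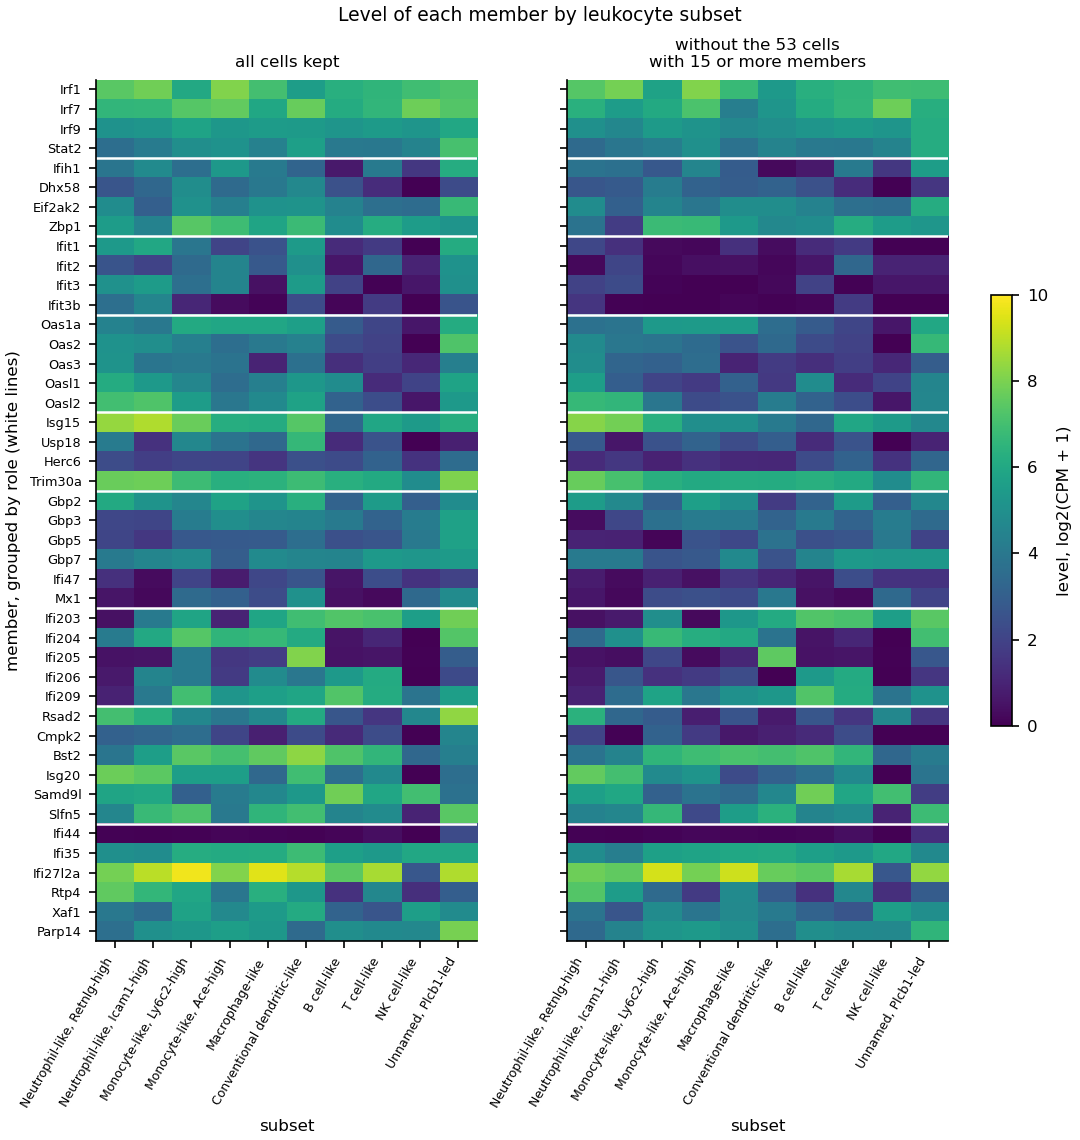
Level of each member (rows, grouped by role) in each of the 10 subsets (columns) as log2(CPM + 1), for all 857 cells (left) and without the 53 rich cells (right). The IFIT rows darken in the right panel for the subsets that hold rich cells, the B, T and NK cell-like columns are the same in both, and Ifi205 in the conventional dendritic-like column, Samd9l in the B cell-like column and Isg15 in the neutrophil-like columns keep their colour.

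Class levels were next set against all other cells, and a member was called higher or lower at 2 times or more if it had at least 50 counts in all. This left 43 members, without Ifi44 (17.2 counts), among 18243 genes. Neutrophil-like cells were higher in 11 of 43 members (11% of all genes were called in that class) and conventional dendritic-like cells in 12 (8.47% of all genes). Monocyte-like cells were higher in 4 of 43 (6.53% of all genes) and macrophage-like cells in 0 (8.9%). B cell-like cells were higher in 4 (20.4%), T cell-like cells in 3 (18.3%) and NK cell-like cells in 2 (18.5%). In the lower direction, neutrophil-like cells were lower in 18 of 43 members (42.9% of all genes), monocyte-like cells in 7 (25.3%), macrophage-like cells in 13 (28.8%) and conventional dendritic-like cells in 3 (34.2%). B cell-like cells were lower in 25 of 43 members (25.4% of all genes), T cell-like cells in 20 (26.4%) and NK cell-like cells in 27 (39.5%). The median log2 ratio over members was -1.69 in B cell-like cells against 0.02 over all genes, -2.33 in NK cell-like cells against -0.26, and 0.40 in conventional dendritic-like cells against -0.32.

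Without the rich cells the dendritic-like cells were higher in 3 members, Gbp5, Mx1 and Ifi205 (8.66% of all genes), of which 2 were among the 12. The neutrophil-like cells were higher in 12 (11% of all genes), which included all 11 of before. Monocyte-like cells then had 5 (7.24%), macrophage-like cells 1 (9.1%), B cell-like cells 6 (20%), T cell-like cells 7 (18%) and NK cell-like cells 6 (18.3%). Counts are not scaled to gene length, so the levels below compare cells for 1 member and never 1 member with another.

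Neutrophil-like cells were high in Isg15, the ubiquitin-like protein that is joined to other proteins in infected cells, in Isg20, an RNA exonuclease, and in Oas3, Oasl1 and Oasl2 of the 5 members of the oligoadenylate synthetase family. Oas1a was called lower in them, at 15 CPM in Icam1-high and 20.8 CPM in Retnlg-high cells against 65.6 in Ly6c2-high monocyte-like cells, and Oas2 was neither. Isg15 was at 442 CPM in Icam1-high and 343 CPM in Retnlg-high cells, against 211 in Ly6c2-high monocyte-like cells and only 9.26 among B cell-like and 59.0 among T cell-like cells; without the rich cells the 2 neutrophil-like levels were 236 and 292. It was present in 45.5% of Retnlg-high cells (interval 37.8 to 53.4) and in 8.70% of B cell-like cells (4.84 to 14.2). Oasl2 was at 152 and 124 CPM in the 2 neutrophil-like subsets and at 7.95 or below in B, T and NK cell-like cells.

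Isg20 was at 215 CPM in Retnlg-high and 177 in Icam1-high neutrophil-like cells and at 0 in NK cell-like cells, where 3 counts would be 1.53 CPM. Rtp4, a transporter chaperone that restrains some RNA viruses, was at 188 CPM in Retnlg-high cells and 1.69 in B cell-like cells. Trim30a, an E3 ligase, was at 210 and 219 CPM in the neutrophil-like subsets and was the most widely present member, in 55.0% of all cells. In Retnlg-high cells the top cell held 8.36% of Isg15 and 9.63% of Rtp4; in Icam1-high cells it held 23.8% and 19.3%.

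The IFIT proteins, which bind viral RNA ends, behaved the other way. Ifit1 was at 63.4 CPM in Icam1-high and 40.6 in Retnlg-high neutrophil-like cells and at 42.5 in dendritic-like cells, but at 1.62, 3.34 and 0.24 CPM without the rich cells. A single cell held 99.5% of the dendritic-like Ifit1 and another 77.7% of that in Retnlg-high cells. Ifit3 was at 43.5 CPM in Icam1-high neutrophil-like cells and 44.3 in dendritic-like cells, and at 3.82 and 0.15 when rich cells were left out. Rsad2, the radical enzyme viperin, was highest in the unnamed cells at 327 CPM, and without rich cells it was at 2.01 there but still at 83.2 in Retnlg-high neutrophil-like cells.

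In the dendritic-like cells Ifi205 depended less on the rich cells, although 1 of them held 900 of its 3044 counts in the whole matrix. Over all kept cells, 4 cells held 50% of its level. This member of the interferon-inducible p200 family, whose proteins bind DNA, was at 274 CPM in them, 53.9 times the level of all other cells, and at 184 CPM without the rich cells; it was present in 34.4% of them (interval 18.6 to 53.2) and at 16.3 CPM or below in every other subset. Bst2 (tetherin, which holds budding viruses at the membrane) was at 315 CPM and present in 65.6% of dendritic-like cells, and at 128 CPM without the rich ones. Usp18 was at 99.1 CPM and at 6.97 without them.

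The p200 family divided the leukocytes. Ifi204 was at 163 CPM in Ly6c2-high monocyte-like cells (present in 61.2%, interval 50.8 to 70.9), 102 in macrophage-like and 92.4 in Ace-high monocyte-like cells, but at 0.45 in B cell-like, 1.09 in T cell-like and 0 in NK cell-like cells. Ifi203 was instead at 154 CPM in B cell-like, 140 in T cell-like and 120 in dendritic-like cells. It was at 47.3 in NK cell-like and 0.36 in Retnlg-high neutrophil-like cells. Ifi209 was at 153 CPM in B cell-like cells and Ifi206 at 68.5 in T cell-like cells. The family is a cluster of near-identical genes, and the shares of fractions given above apply to it.

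Samd9l, which blocks translation and limits cell growth, was the member that set B cell-like cells apart. It was at 224 CPM and present in 40.4% of them (interval 32.7 to 48.4), at 123 CPM in NK cell-like cells and at 7.40 in Ly6c2-high monocyte-like cells, the subset with the largest share of rich cells. In these 3 subsets it was present in 40.4%, 33.3% and 6.12% of cells.

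Among the transcription factors, Irf1 was highest in Ace-high monocyte-like cells at 278 CPM (present in 70.4%, interval 59.2 to 80.0) and in Icam1-high neutrophil-like cells at 229, and lowest in dendritic-like cells at 47.0. Its level in Ace-high cells was 274 CPM without the rich cells. Irf7, which drives interferon production and is itself induced, was at 222 CPM in NK cell-like, 206 in dendritic-like and 191 in Ace-high monocyte-like cells; of the dendritic-like value 72.2% was in 1 cell, which was rich, and without rich cells it was 35.7. Irf9, the DNA-binding partner of Stat2, was nearly flat, between 33.7 and 63.2 CPM in the 10 subsets.

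Of the 4 sensors, Zbp1 and Dhx58 were called higher in monocyte-like cells, and Ifih1 and Eif2ak2 were not. Zbp1, a sensor of Z-form nucleic acid, was at 167 CPM in Ly6c2-high and 117 in Ace-high monocyte-like cells and at 20.4 in Icam1-high neutrophil-like cells. Dhx58 (Lgp2) was at 29.0 CPM in Ly6c2-high monocyte-like cells and 0 in NK cell-like cells. Ifi27l2a, a small mitochondrial protein gene, was at 870 CPM in Ly6c2-high monocyte-like (present in 77.6%) and 739 CPM in macrophage-like cells (present in 81.6%), against 5.61 CPM in NK cell-like cells. It is the member that most cells of these 2 subsets carried whether or not they were rich, with 646 and 605 CPM in those that were not. The large GTPases were low in most classes: Gbp2 was at 77.2 CPM in dendritic-like cells, with 97.4% of it in 1 cell, and at 66.2 in Retnlg-high neutrophil-like cells.

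The rest of the pathway was then compared between the rich cells and other cells of the same clusters. Of 18243 genes, 9.22% were at least 2 times higher in the rich cells, and the median log2 ratio was -0.13. The members, which chose the cells, were higher in 42 of 43 as a matter of that choice. Of the other interferon-induced genes 59 of 79 were higher, their sum was at 2.60 times and their median log2 ratio was 1.53. Irgm1, an immunity-related GTPase, was at 14 times, the p200 gene Ifi211 at 8.47, Slfn4 at 8.33, the chemokine Cxcl10 at 7.10 and Mx2 at 6.92 times. These ratios compare means and can rest on a part of the cells. Of the 53 rich cells, Ifi211 was present in 28, Slfn4 in 22, Irgm1 in 15, and Cxcl10 and Mx2 in 10 each. Some of the other interferon-induced genes, such as Ifi211, are relatives of members and may share reads with them. Over all cells, not matched by cluster, a rich cell had a median of 23 of these 81 genes present, against 10 in cells that were not rich. Within subsets the medians were 22 against 15.5 in Ly6c2-high monocyte-like and 16 against 8 in Retnlg-high neutrophil-like cells. The 16 reference genes had 0 higher and a sum at 1.08 times.

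Receptors did not stand out in the rich cells: 0 of 6 were higher and their sum was at 0.99 times. Of 10 signal transducers 3 were at least 2 times lower (23.3% of all genes were), Irf3 at 0.31, Ikbke at 0.39 and Tyk2 at 0.40 times. Jak1 was at 1.19, Stat3 at 1.26 and Irf8 at 1.28 times. Presence, not matched by cluster, differed: Tyk2 was in 17.0% of rich and 8.71% of other cells. For Ikbke the shares were 13.2% and 10.4%, and for Irf3 11.3% and 23.4%. Of 8 brakes on the response 3 were higher, the RNA-editing enzyme Adar at 3.75, the DNA exonuclease Trex1 at 3.37 and Socs1 at 2.13 times. Adar was present in 16, Trex1 in 20 and Socs1 in only 6 of the 53 rich cells. Of 10 sensors 2 were higher, Ddx58 (RIG-I) at 9.02 times, present in 18 rich cells, and Tlr7 at 2.50 times, present in 15. Of the 11 listed ligand genes, Ifng alone was in the matrix, at 142 CPM in NK cell-like and 34.3 in T cell-like cells. None of the rich cells was NK or T cell-like. Ifng was at 0 in them and at 0.013 CPM in the other cells of their clusters, so its 0 does not set rich cells apart.

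Across classes, receptors were highest in NK cell-like cells at 2269 CPM, led by Ifngr1 at 2100, and lowest in B cell-like cells at 285. Signal transducers were also highest in NK cell-like cells, at 4233 CPM, of which Irf8 was 2849. The class with the highest receptor and transducer sums thus had the lowest member sum, but each of those sums rested mainly on a single gene. In NK cell-like cells Ifnar1 was at 106 CPM, Ifnar2 at 20.9 and Ifngr2 at 1.53, the last present in 1 of 27 cells. The other interferon-induced genes were at 4464 CPM in dendritic-like, 3713 in monocyte-like and 2669 in B cell-like cells. Their ratio of myeloid to lymphoid cells was 1.23 (interval 1.22 to 1.24) and 0.994 without the rich cells.

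Markers of other cell types were read in the rich cells. B cell markers were at 0.28 times the level of other cells of the same clusters, with 0 of 9 higher; T cell markers were at 0.80, neutrophil markers at 0.74, monocyte markers at 1.19 and macrophage markers at 1.09 times. Plasmacytoid dendritic markers, typical of interferon-producing cells, were at 1.65 times, with 1 of 5 higher and 2 lower (23.3% of all genes were at least 2 times lower). The part of mixed cells in the result was not tested beyond the doublet-named cells above.

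Genes outside the list were ranked by how closely they followed the summed list within clusters, over 857 cells and 16322 genes, as Pearson correlations of log2(CPM + 10). Among the 10 closest were Gm9706 (r = 0.35), Ifi211 (0.27), the class Ib histocompatibility gene H2-T23 (0.26), Slfn4 (0.26), Ifitm3 (0.26), Gm13822 (0.25), Gvin2 (0.23), Trex1 (0.23) and Sp100 (0.23). Cells of 1 library share depth and free RNA, so these values are a description. All were weak, and Ifi211, Slfn4, Sp100 and Trex1 belong to the pathway lists compared above.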

How the data were processed

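The deposited matrix holds estimated counts, 30.2% of whose values above 0 are fractions, for 31192 genes in 878 cells of 1 library. No source used here says whether they count reads or molecules; intervals would be too narrow for reads. The submitters' processing notes name cutadapt 4.1, STARsolo 2.7.10b, STAR, R 4.3.1 and GRCm39, with no roles. The authors' tag call is part of each cell name, and the hashtag library was not used.

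Cells were kept from 500 counts and 200 genes upward if mitochondrial genes took no more than 25%. After scaling to 10000, 2000 variable genes without the members and pathway lists, 30 components and 15 neighbours went into Leiden clustering at resolution 1 (Python 3.11.15, scanpy 1.11.5, leidenalg 0.10.2, numpy 2.4.6, pandas 2.3.3, scipy 1.17.1, matplotlib 3.10.9). A cluster was named from at least 3 markers at 50 CPM and 2 times other cells; leaving a cluster unnamed when no marker led it was decided after seeing the data. No doublet caller was run. The 21 cells left out held at most 10 members.

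Levels are summed estimated counts scaled to 1e6 (CPM) with exact Poisson intervals, and shares of cells have Clopper-Pearson intervals. All 44 members could be named, up to 4 genes of each pathway list by level, and the 10 most like genes present in at least 5% of cells. Ifngr2, Irf3, Ikbke and the genes named among those higher in rich cells were chosen after their values were seen. The members and lists were chosen with earlier results of these data known. The scripts were tested on simulated data. Values of 1 gene are not reported here.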

Additional observations from a re-analysis of the deposited data

How the results depend on the processing

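Of 39 alternatives for 7 results, 20 stayed within the counting interval or 1.5 times, 18 moved and 1 reversed. The ratio of myeloid to lymphoid list level (1.79) was 1.72 without doublet-named cells, 1.82 with a mitochondrial limit of 10%, 1.70 with each cell weighted alike, 1.44 without the richest 5% of cells of each class, 2.11 with each member weighted alike and 1.09 without rich cells, an alternative chosen after seeing the data. The share in the richest 5% (31.0%) was 38.9% with members scaled to the same mean. Rich cells (53) numbered 31 after thinning to 10000 counts, 147 with a limit of 10 members, 27 with 20, and 127 without thinning and with values below 1 as absent, of which 5 were lymphoid. A second draw of the thinning gave 52, 47 of them rich in both. The other 22 members (5.49 times) were at 5.01 without doublet-named cells, 4.02 in the richest 10% and 6.59 with the roles exchanged. Class calls (36) numbered 59 at 1.5 times. For the other interferon-induced genes the myeloid to lymphoid ratio (1.23) was 1.22 without doublet-named cells and reversed to 0.994 without rich cells, and their ratio in rich cells (2.60) was 3.41 with a limit of 20 and 2.67 in the second draw; these 4 settings were chosen after seeing the data. The cause of these shifts was not tested. No paired analysis was possible because there is 1 transcriptome library. In the smallest class, 27 NK cell-like cells, 3 counts are 1.53 CPM, so levels at or below this rest on 3 counts or fewer.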
